A study of Homo sapiens with 4 samples.

Results

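Clusters in coding sequence are the stretches of protein-coding exons where crosslinks of a proline-arginine repeat protein to RNA piled up. They were taken from the list of crosslink clusters called on the 4 libraries together. A cluster was a member when its summit, the position with the most cDNAs, lay in annotated coding sequence on the same strand of chromosomes 1 to 22 or X. There were 2566 such clusters among 5408 on these chromosomes (47.4%, 95% Wilson interval 46.1 to 48.8), out of 5596 in all. They held 42725 of the 127417 cDNAs in clusters on these chromosomes, or 33.5%. Members were thus chosen by the counts of cDNAs and by whether the summit lay in coding sequence, so counts and membership are given as a description with no test. Where in the coding sequence a summit lay was not used.

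The cells were HEK293T, a human embryonic kidney line that is easy to transfect. They were transfected transiently and expressed PR100-FLAG, a chain of proline-arginine dipeptides with a FLAG tag, for 24 h under 150 ng/ml doxycycline, and were crosslinked at 160 mJ/cm2 with UV light of 254 nm. RNA bound to PR100-FLAG was then read by iiCLIP, in which reverse transcription stops next to the crosslinked base and each unique cDNA counts as 1 crosslinking event. SDS-PAGE was the purification step in 3 libraries (replicates 1, 2 and 3), beads took its place in replicate 4, and all 4 libraries belong to 1 condition. Control libraries were not analysed here, and nothing in the labels says that the libraries came from separate cultures, so the spread between them may be technical. The libraries held 125694 to 604816 events. Replicates 3 and 4, with 125694 and 179636, lie below the minimum of unique events that the paper states for each PR100 sample. The reason is not known from the labels.

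Poly(PR) is 1 of the dipeptide repeat proteins translated from the expanded GGGGCC repeat of C9orf72, the repeat behind many inherited cases of ALS (amyotrophic lateral sclerosis) and of frontotemporal dementia. It is strongly basic, and it is known to bind RNA and to gather in nucleoli. Coding sequence is read in triplets, so that a short RNA motif placed in a different frame encodes different amino acids. The motif GAAGA can be read as GAA-GA, which starts with a glutamate codon, as G-AAG-A around a lysine codon, or as GA-AGA, which ends with an arginine codon. The paper reports GAAGA as the most enriched short motif of its length at PR100 crosslinking sites in these data. An excess of the motif near the summits was thus fixed in part by that choice and is given as a description.

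The windows below show the largest clusters and the largest cluster of some of the genes with the most clusters. Each window is 30 nt long and starts with the codon that holds the summit. Sequences and coordinates are from GENCODE 44 on GRCh38, and GAAGA is in capitals. The first group was chosen because most of its codons were acidic, the second because it was rich in basic codons, and the third because the same rankings also held windows in which neither kind prevailed.
NCL from codon 21, chr2:231463245-231463274, minus strand: ccaaaggagguaGAAGAAGAuaguGAAGAu
NCL from codon 231, chr2:231460760-231460789, minus strand: aacguggcugaggauGAAGAuGAAGAAGAg
HSP90AA1 from codon 233, chr14:102084936-102084965, minus strand: gaugaggcuGAAGAaaagGAAGAcaaagaa
HMGB2 from codon 191, chr4:173332110-173332139, minus strand: gaggaggaggagGAAGAAGAAGAuGAAGAu
ANP32B from codon 190, chr9:98011321-98011350, plus strand: uuugauGAAGAAGAugauGAAGAuGAAGAu
SRRM2 from codon 185, chr16:2758507-2758536, plus strand: ccaaagcaGAAGAAGAAGAaaaaGAAGAaa
SERBP1 from codon 106, chr1:67426254-67426283, minus strand: auaagacgaguugGAAGAAGAccugaucaa
RPS6 from codon 195, chr9:19376536-19376565, minus strand: aagaagcagcguaccaagaaaaauaaagaa
H1-2 from codon 120, chr6:26056042-26056071, minus strand: guuaaaaaggcgggcggaaccaaaccuaag
ACVR2B from codon 35, chr3:38477337-38477366, plus strand: aacugggagcuggagcgcaccaaccagagc
EEF2 from codon 304, chr19:3981411-3981440, minus strand: aucaugaauuucaagaaagaggagacagca
DNMT1 from codon 1088, chr19:10142046-10142075, minus strand: guccagguguacuccaugggcggccccaac

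In HMGB2, which encodes a chromatin protein with an acidic tail, all 10 codons of the window were acidic, and the 4 copies of GAAGA were all read as GAA-GA. The ANP32B window, in the gene of an acidic histone-binding protein, held 9 acidic codons and 4 copies of GAAGA in the same frame. The SRRM2 window also held 4 copies of GAAGA, but none in that frame. It encoded 8 basic and 0 acidic residues in this scaffold protein of nuclear speckles. The ACVR2B window, in an activin receptor gene, held 2 acidic codons and no copy of the motif.

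The clusters were short and most held few cDNAs. Their median width was 85 nt (25th to 75th percentile, 48 to 128), and their median content was 12 cDNAs. Of the 2566 clusters, 593 stood at 10 cDNAs, the lowest number in the list, 416 held 20 or more, 51 held 50 or more and 10 held 100 or more. The median summit rested on 4 cDNAs, and 600 clusters (23.4%) had tied summits, of which the leftmost position was used. The edge of the rule was narrow: 56 members had their summit within 3 nt inside an edge of coding sequence (median 12 cDNAs) and 33 other clusters lay within 3 nt outside (median 13 cDNAs). A further limit was the annotation, as 68 members lay in the coding sequence of more than 1 gene.

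The libraries shared the clusters unevenly. Clusters in coding sequence held 7122, 20118, 6721 and 8764 cDNAs of replicates 1 to 4, which was 2.13%, 3.33%, 5.35% and 4.88% of the events of each library. At least 1 cDNA was seen in 1865, 2432, 986 and 2070 clusters. A cDNA of all 4 libraries was found in 423 clusters (16.5%), against 20.1% of all clusters on these chromosomes. Replicate 3 stood apart. It was the shallowest library, it had a random barcode of 5 nt where the others had 7 nt, its events stacked at 2.16 per position against 1.15 to 1.67 in the others, and 1580 clusters held none of its cDNAs. Across the 2566 clusters, Spearman correlations of the counts were between -0.42 and -0.23 for pairs with replicate 3 and between 0.05 and 0.27 for the other pairs. All these clusters had to reach 10 cDNAs in the sum of the libraries, and the correlations are given as a description.

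Clusters whose cDNAs came mostly from 1 library also differed in sequence. Replicate 2 gave over 50% of the cDNAs in 1097 clusters, replicate 3 in 428, replicate 1 in 111 and replicate 4 in 65, and no library did so in 865. The median width was 53 nt where replicate 3 prevailed and 86 to 92 nt in the other 4 sets. GAAGA was present in 11.7% of the windows of the replicate 3 set, in 17.1% for replicate 1, in 23.2% for replicate 2, in 36.9% for replicate 4 and in 27.2% where no library prevailed. What part the library preparation had in this was not tested. The lists called on each library separately gave another view: 1765 clusters (68.8%) overlapped no cluster of any single library, against 58.6% of all clusters on these chromosomes, and 6 overlapped a cluster in all 4 lists.

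The largest cluster lay in exon 2 of the coding sequence of ACVR2B and held 1136 cDNAs within 36 nt, 224 of them at the summit. It had 374, 592, 1209 and 2789 CPM (its cDNAs scaled by the total events of the library, per 1000000) in replicates 1 to 4. The second, in HSP90AA1, which encodes the stress-inducible cytosolic HSP90 chaperone, held 535 cDNAs within 194 nt. Its values of 213, 400, 39.8 and 1208 CPM were lowest in replicate 3, where it had 5 cDNAs. NCL, which encodes the acidic nucleolar protein nucleolin, had 3 of the 10 largest clusters. The cluster at codon 21 had 132, 266, 199 and 440 CPM, the one at codon 231 had 219, 185, 183 and 384 CPM, and the one at codon 189 had 89.8, 94.2, 0 and 72.4 CPM. The first 2 were highest in the beads library, and the third was not.

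HSP90AB1, the constitutive counterpart of HSP90AA1, had 98.8, 223, 167 and 507 CPM in its largest cluster. NEFM, which encodes the medium neurofilament subunit, had 68.9, 132, 47.7 and 284 CPM at codon 702 of 916. PTMA, the gene of the very acidic prothymosin alpha, had 53.9, 94.2, 0 and 200.4 CPM. RPS6, a protein of the small ribosomal subunit, had 32.9, 84.3, 95.5 and 161 CPM at codon 195. In each of these 4 clusters the beads library was the highest. VPS13C, a lipid transport gene, was unlike them. Its cluster was 7 nt wide, 85 of its 104 cDNAs came from replicate 2, and it had 11.97, 141, 103 and 11.1 CPM. HSP90, prothymosin, HMGB and ribosomal protein genes have near-identical copies elsewhere in the genome, and only uniquely mapped reads were kept, so their counts are uncertain.

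Over all members, the beads library had a higher CPM than each of the SDS-PAGE libraries in 859 of the 2566 clusters (33.5%), where the share over all 5408 clusters was 24.4%. It was below each of them in 179 clusters (6.98%), against 11.4% of all clusters. This count was 416, 295 and 539 without replicate 1, 2 and 3, and it cannot include the 1580 clusters where replicate 3 had no cDNA. In 3′ UTRs, 36 of 308 clusters (11.7%) were highest in the beads library. With 1 beads library, the purification and the library cannot be told apart.

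In their reading frame, the summits leaned to the first base of the codon. For each library, clusters with at least 3 of its cDNAs were used, each at that library's own summit, which gave 1025, 2124, 856 and 1048 sites. Codon position 1 held 36.1%, 37.3%, 34.5% and 37.6% of the sites in replicates 1 to 4 (36.4% ± 1.42, SD, n = 4 libraries), against 33.3% for an even spread. Position 2 held 31.5% ± 1.63 and position 3 held 32.1% ± 0.77. Position 1 was above, and the other positions below, the even share in 4 of 4 libraries (exact sign-flip permutation test over the 4 libraries, two-sided, p = 0.13, the smallest p that 4 libraries can give, so that no comparison here can pass 0.05). The lean was smaller against the crosslinking events of the same coding sequences outside clusters. There the difference at position 1 was 1.23 ± 1.85 percentage points and was positive in 3 of 4 libraries.

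The base at the summit was U in 27.3% ± 3.34 of the sites, against 20.3% of the bases of the same coding sequences, and it was higher in 4 of 4 libraries. G stood at 21% ± 3.75 against 26.9% and was lower in 4 of 4. Against events outside clusters, G differed by -0.23 ± 2.34 percentage points and was lower in 3 of 4 libraries, and U was lower by 1.75 ± 1.20 percentage points in 4 of 4 libraries (exact sign-flip test, p = 0.13).

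The codons from the summit on encoded more charged residues than the rest of the same coding sequences. Each site was given a window of 10 codons from the summit codon on, and the background was every codon of the same transcripts outside the clusters. Of the 20 amino acids, 4 were above the background in all 4 libraries (20%) and 12 were below it in all 4 (60%). The 4 were glutamate, aspartate, lysine and arginine, the residues that carry a charge at neutral pH for the most part. Against events outside clusters, only glutamate, aspartate and lysine were above in all 4 libraries. Only alanine, glycine, proline, serine and tryptophan were below in all 4 there. GAAGA, which had been chosen from these data, holds a glutamate, lysine or arginine codon, depending on its frame. The ratios of these residues thus do not stand apart from that choice, and the part of the motif in them was not tested.

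Glutamate made up 12.6%, 12.8%, 9.79% and 14.7% of the window codons in replicates 1 to 4, against 8.63% on average in the background. Its log2 ratio was 0.52 ± 0.22 (SD, n = 4 libraries). It was lowest in replicate 3, but above the background in each library. Aspartate had a log2 ratio of 0.29 ± 0.08, with values from 6.0% to 6.97% against 5.31%. Lysine reached 0.23 ± 0.15, with a value of 0.00 in replicate 3 and values from 0.26 to 0.35 in the others. Arginine was raised by 0.08 ± 0.02, and against events outside clusters its ratio was 0.00 ± 0.03, above 0 in 2 of 4 libraries. Acidic residues together made up 19% ± 2.43 of the codons against 13.9%, and basic residues 16.2% ± 1.45 against 14.4%. The lowest ratios were those of cysteine, at -0.44 ± 0.18, and proline, at -0.27 ± 0.15. Against the background of codons, each of these ratios had the smallest possible p of the exact sign-flip test, 0.13. Against events outside clusters, cysteine stood at -0.17 ± 0.34, with 0.34 in replicate 3, and proline at -0.28 ± 0.10.

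Windows rich in acidic residues were more frequent than in the background. Windows in which at least 5 of the 10 codons were acidic made up 10.1%, 9.75%, 5.14% and 13.3% of the windows in replicates 1 to 4 (9.57% ± 3.35). The background here was all windows of the same coding sequences, clusters included, and held 3.35%. The difference was 6.23 ± 2.77 percentage points and was positive in 4 of 4 libraries (exact sign-flip test, p = 0.13). It was 5.83 ± 2.84 against events outside clusters. Clusters with many cDNAs held more acidic codons per window on average, which is a description, as the rule used these counts. The mean number of acidic codons per window was 1.56 in clusters of 10 to 11 cDNAs, 1.81 in those of 12 to 19, 2.23 in those of 20 to 49 and 2.88 in the 51 clusters of 50 or more. The share of windows with GAAGA in the same classes was 17.8%, 21.8%, 35.3% and 50.98%, and the Wilson interval of the last was 37.7% to 64.1%. These intervals cover counting error only.

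At the level of codons, 8 of the 61 sense codons were above the background in all 4 libraries (13.1%) and 27 were below it in all 4 (44.3%). The glutamate codon GAA led with a log2 ratio of 0.74 ± 0.25, followed by the aspartate codon GAU at 0.44 ± 0.11, GAG at 0.33 ± 0.17, the lysine codon AAG at 0.27 ± 0.18 and the glutamine codon CAA at 0.21 ± 0.05. The lysine codon AAA stood at 0.21 ± 0.12 and the aspartate codon GAC at 0.13 ± 0.08. The other 1 of the 8, the arginine codon AGA, had 0.21 ± 0.08. GAA, AAG and AGA are the codons that GAAGA holds, so their ratios are tied to the choice of the motif. At the other end stood UGU and UGC of cysteine, at -0.63 ± 0.25 and -0.35 ± 0.13, CCG of proline at -0.61 ± 0.39, CUU of leucine at -0.43 ± 0.29 and GCC of alanine at -0.34 ± 0.21. Some of these ratios depended on the background. Against events outside clusters, 6 codons were above and 20 below in all 4 libraries. There CAA stood at 0.03 ± 0.10 and was above 0 in 2 of 4 libraries, and AGA stood at 0.02 ± 0.19 and was above 0 in 3 of 4. UGU stood at -0.24 ± 0.39 and UGC at -0.10 ± 0.31, and both were above 0 in replicate 3. GAA stood at 0.50 ± 0.22 and was above 0 in 4 of 4.

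Codons for the same residue were not raised alike. Among glutamate codons, GAA made up 56.1%, 53.9%, 50.2% and 57.3% in the windows of replicates 1 to 4, against 47.2% on average in the background. The share was 7.17 ± 1.45 percentage points higher, in 4 of 4 libraries. GAU took 58.2% ± 3.81 of the aspartate codons against 52.9%, a difference of 5.29 ± 2.02 points. For lysine, AAA differed from the background by -0.98 ± 1.31 points and was higher in 1 of 4 libraries. Against events outside clusters, the differences were 4.10 ± 2.20 points for GAA and 2.84 ± 2.01 points for GAU.

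The position of the charged codons relative to the summit differed between residues. Glutamate codons made up 10.9% of the codons 15 to 11 before the summit codon and 7.85% at the summit codon itself. They then reached 15% ± 3.63 at the second codon after it. This was the highest offset in replicates 1, 2 and 4, while in replicate 3 the sixth codon after the summit was the highest. Lysine had its highest mean at the next codon, with 12.05% ± 2.39, which was the maximum of replicates 2 and 4 but not of the others. Arginine stood at 4.17% at the summit codon and at 7.67% at the next one, again the maximum of replicates 2 and 4 only. Aspartate had its highest mean, 7.08% ± 0.78, at the codon before the summit, and the maximum lay at a different codon in each library. When the summit codon alone was used, glutamate was below its background by 0.15 on the log2 scale.

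GAAGA was read in the glutamate frame more often near the summits than elsewhere. The motif was present in 25.7%, 25.7%, 17.5% and 31.2% of the windows of replicates 1 to 4, with 385, 820, 200 and 488 occurrences, overlapping copies included. Of these, 69.9%, 71.6%, 66.0% and 71.3% were in the frame GAA-GA, which gives 69.7% ± 2.57. In the same coding sequences outside clusters, 59.4% of the copies were in this frame. The difference of 10.3 ± 1.76 percentage points was positive in 4 of 4 libraries (exact sign-flip test, p = 0.13), and it was 7.64 ± 1.16 points against events outside clusters.

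The lysine frame G-AAG-A took 24.2% ± 1.40 of the copies, against 33.7% outside clusters, and was lower in 4 of 4 libraries. A window of whole codons has slightly fewer places for a copy in this frame than in the others. The shares outside clusters have no such limit, so part of the differences in frame comes from the windows. Against events outside clusters, counted in windows of the same kind, the lysine frame differed by -5.77 ± 1.39 percentage points, negative in 4 of 4 libraries. The arginine frame GA-AGA took 5.45%, 5.37%, 8% and 5.53% against 6.94%. It was lower in replicates 1, 2 and 4 and higher in replicate 3. Each frame was nevertheless more frequent per window than outside clusters, but the motif had been chosen for its excess at crosslinking sites of these data. The log2 ratio of copies per window was 1.60 ± 0.35 for GAA-GA, 1.16 ± 0.07 for GA-AGA and 0.89 ± 0.30 for G-AAG-A, and all were above 0 in 4 of 4 libraries. Against events outside clusters, these ratios were 1.08 ± 0.35, 0.53 ± 0.32 and 0.60 ± 0.26, again above 0 in 4 of 4 libraries.

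Compared with clusters in untranslated regions, clusters in coding sequence held GAAGA more often. In the 30 nt of the transcript from the summit on, which here were taken without regard to codons, GAAGA was present in 26.3%, 25.7%, 17.9% and 31.9% of the coding sites of replicates 1 to 4. Of the 308 clusters of 3′ UTRs, 136, 240, 137 and 46 held at least 3 cDNAs of the library, and GAAGA was present in 5.19%, 7.50%, 2.19% and 6.67% of these. Of the 203 clusters of 5′ UTRs, 67, 168, 90 and 48 did so, and the shares were 7.58%, 7.98%, 7.87% and 4.44%. The UTR shares of replicate 4 rest on few windows. The groups did not overlap. The differences were 20.1 ± 4.10 and 18.5 ± 7.13 percentage points, positive in 4 of 4 libraries (exact sign-flip test, p = 0.13 for each). The regions differ in base composition, and its part in this difference was not tested. The motif was itself taken from the crosslinking sites of these data. Over all clusters, neither width nor cDNAs per cluster differed in the same direction in all libraries. Coding clusters were 2.99 ± 4.83 nt wider than those of 3′ UTRs and 1.07 ± 7.19 nt wider than those of 5′ UTRs. Among clusters of at least 20 cDNAs, which left 14 to 23 sites per library in 3′ UTRs and 15 to 31 in 5′ UTRs, coding clusters were wider by 19.5 ± 5.99 and 11 ± 8.37 nt and held fewer cDNAs, with log2 ratios of -0.34 ± 0.13 and -0.16 ± 0.16, each in 4 of 4 libraries.

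Along the coding sequence, the summits were spread nearly evenly. Their mean place, as a fraction of the coding sequence from start to stop codon, was 0.493, 0.491, 0.495 and 0.496 in replicates 1 to 4. The first 10% of the coding sequence held 10.3% ± 0.56 of the sites. The last 10% held 8.78%, 8.05%, 8.41% and 8.21% (8.36% ± 0.32), which was below 10% in 4 of 4 libraries (exact sign-flip test, p = 0.13). Events outside clusters were themselves unevenly placed, and against them the difference in the last 10% was -0.27 ± 2.67 percentage points.

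The coding exons that held the summits were of ordinary length. Their median length, counting coding bases only, was 174, 175, 181 and 166 nt, against a background median of 168 nt on average, with a log2 ratio of 0.05 ± 0.02 that was positive in 4 of 4 libraries. Against events outside clusters it was 0.02 ± 0.10. Within 50 nt of a junction between coding exons lay 51.7%, 52.2%, 47.8% and 58.5% of the sites. The difference from the background was -1.43 ± 2.56 points and was negative in 3 of 4 libraries (exact sign-flip test, p = 0.38).

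The clusters fell in 1301 genes. A single cluster was found in 832 genes, 207 genes had 2, and 262 genes had 3 or more and held 1320 of the clusters. Among protein-coding genes with at least 50 events in coding sequence, 742 of 1069 (69.4%) held a cluster. RNA levels were not measured here, so that a gene with many events may be one that is bound often or one that is abundant.

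EEF2, which encodes the elongation factor that moves the ribosome along the messenger RNA, had the most clusters. Its 24 clusters held 510 cDNAs, at 266, 470, 263 and 579 CPM in replicates 1 to 4, and lay from 0.41% to 94.7% of the coding sequence. GAAGA was in the window of 1 of them. NEFM followed with 23 clusters and 302, 496, 286 and 701 CPM, and 10 of its windows held GAAGA. In both genes many clusters were narrow neighbours of each other. At most 10 nt wide were 11 of the 24 in EEF2 and 19 of the 23 in NEFM, whose coding sequence has 3 exons, so the count of clusters in these genes is not a count of separate regions.

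HNRNPU, which encodes a scaffold protein of nuclear RNA, had 19 clusters in 13 of its 14 coding exons, at 195, 428, 71.6 and 562 CPM, and 11 of the 19 windows held GAAGA. NCL had 18 clusters in 12 of 14 coding exons. They held 1059 cDNAs, or 650, 838, 692 and 1381 CPM, and took up 78.5% of all coding events of the gene. SRRM2 had 17 clusters with a median of 0 acidic codons per window, and its 201, 235, 215 and 301 CPM were the most even of these genes. Its clusters took up 32.0% of its coding events.

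The other 5 genes with the most clusters were long. DNMT1, the maintenance DNA methyltransferase, had 15 clusters in as many coding exons and 147, 208, 159 and 373 CPM. HUWE1, a ubiquitin ligase of 4374 codons, had 14 at 135, 184, 47.7 and 228 CPM. SMC4, a condensin subunit, had 13 clusters that took up 76.3% of its coding events, at 120, 170, 87.5 and 367 CPM. PRRC2A also had 13 and was highest in replicate 3, at 74.8, 195, 461 and 301 CPM. PRKDC, the catalytic subunit of the DNA-dependent protein kinase, had 12 at 86.8, 157, 95.5 and 145 CPM. In 8 of the 10 genes with the most clusters, all but PRRC2A and PRKDC, the beads library was the highest. The same share over all genes with clusters is not given here, so this count does not set these genes apart from others.

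Marker genes of the line and of other cell types were checked in the coding sequences. NEFM had 1344 events, NEFL 134, VIM 74, INA 8, KRT18 1 and KRT8 0. Genes of red cells, white cells, liver and astrocytes (HBB, HBA1, PTPRC, CD3E, ALB and GFAP) had 0. The keratins of epithelial cells were thus nearly absent from the coding events, and whether their RNA was present is not known from these data.

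Gene lists showed which proteins the clusters encode. Each list is given by the number of its genes with at least 50 coding events that held a cluster, beside the 69.4% of all such genes. All 33 splicing factors and all 23 ribosomal protein genes held one, as did 25 of 27 nucleolar proteins, 15 of 16 hnRNP proteins, 16 of 17 chaperones, 14 of 15 translation factors and 13 of 14 histone chaperones and HMG proteins. Chromatin remodellers had 22 of 25, and intermediate filaments, tubulins and actins had 8 of 9. For chromatin remodellers the share was that of all genes when clusters of at least 20 cDNAs were required (20% against 19.9%), and slightly below it among genes with at least 100 events (89.5% against 91.2%). Nearer to the share of all genes were cohesin, condensin and topoisomerases with 14 of 18, ALS and stress granule proteins with 10 of 13, DEAD and DEAH box helicases with 15 of 20 and nuclear pore and transport with 14 of 20. Below it were replication-dependent histones with 3 of 5, long coiled-coil and motor proteins with 16 of 29 and zinc finger genes named ZNF with 11 of 22. The place of 2 lists depended on the setting. With clusters of at least 20 cDNAs, the share was 60% for these histones and 5% for nuclear pore and transport, against 19.9% of all genes. Among genes with at least 100 events, 3 of 3 of these histones and 6 of 6 nuclear pore and transport genes held a cluster. Lists differ in how many events their genes have, and among all genes with at least 100 events 91.2% held a cluster.

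The charge of the encoded windows differed widely between lists. Windows of histone chaperones and HMG proteins, which bind histones through acidic stretches, held 4.24 acidic and 1.24 basic codons on average, against 1.79 and 1.54 over all 2566 clusters. Chaperones held 2.65 acidic and 1.21 basic codons, filaments 2.63 and 1.41, and nuclear pore and transport proteins 2.55 and 1.06. The reverse was found in ribosomal proteins, with 0.89 acidic and 2.61 basic codons, in replication-dependent histones, with 0.43 and 2.78, and in splicing factors, with 1.73 and 2.30. Of the 16 lists, 11 held more acidic than basic codons, 4 fewer and 1, the translation factors, as many. These means were not set against the rest of each list's own coding sequences. Whether they differ from the composition of the whole proteins was not tested.

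Within the lists, single genes are given by their own clusters and CPM, not by their share of the list. PTMA had 3 clusters that took up 96.1% of its coding events and a median of 6 acidic codons per window, at 117, 167, 15.9 and 573 CPM. ANP32B had 4 clusters with a median of 7 acidic codons, at 62.9, 131, 0 and 223 CPM. NAP1L1, a nucleosome assembly protein, had 7 clusters at 68.9, 124, 159 and 367 CPM. All of them were highest in the beads library, and replicate 3 ranged from the lowest to the second highest. The share of all genes with clusters that were highest in the beads library is not given here, so this does not set these genes apart.

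HSP90B1, the HSP90 of the endoplasmic reticulum, had 11 clusters with a median of 4 acidic codons, 6 of them with GAAGA, at 171, 294, 366 and 757 CPM. Of the ribosomal protein genes, RPS6 had 6 clusters at 108, 207, 223 and 289 CPM, RPL5 had 7 at 98.8, 150.5, 39.8 and 367 CPM, and RPL19 had 5 at 117, 121, 7.96 and 356 CPM. Among linker histones, H1-4 had 8 clusters with a median of 0 acidic codons at 83.8, 157, 95.5 and 200.4 CPM, and 6 of the 8 were at most 10 nt wide. SRSF11, a splicing factor, had 9 clusters at 111, 184, 71.6 and 440 CPM.

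Narrow clusters, taken at a cut-off chosen for description, differed on average from wider ones. In 151 clusters of at most 10 nt, 29.7% of the 2181 cDNAs came from replicate 3, against 14.98% in the 2415 wider clusters. GAAGA was in 13.2% of the narrow clusters' windows and in 23.3% of the others. The mean number of acidic codons was 1.56 against 1.80. The narrow clusters lay in 103 genes, with 19 in NEFM, 11 in EEF2 and 6 in H1-4. Values without these genes or without replicate 3 are not given here.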

How the data were processed

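For 4 iiCLIP libraries, the deposited values are counts of cDNAs, collapsed to unique ones, at each crosslinked position, and clusters with the sum of these counts. The authors collapsed PCR duplicates by random barcode, mapped reads with STAR (version not given in the sources used here) to GRCh38 with Gencode 27 allowing 2 mismatches, kept uniquely mapping reads, took the base before the read as the crosslink, and used iCount (false discovery rate 0.05) to find enriched positions on the 4 libraries together. How positions were joined is not given in the sources used here. Collapsing by barcode depends on its length, and a 5-nt barcode has fewer distinct forms than a 7-nt one.

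Positions were placed on GENCODE 44, a later release than that of the authors, and counts were summed per library in each cluster. The pooled positions were the sum of the libraries at all 784115 positions. CPM used the total of each library. A site was the library's own summit in a cluster with at least 3 of its cDNAs, on the canonical transcript where it holds the summit. Windows were 10 codons from the summit codon on, and 0.5 was added to codon counts before log2 ratios. The background was every codon of the same transcripts outside the clusters, weighted by the number of sites, or crosslinking events there. As this codon background leaves out the clusters, it lies slightly below the whole coding sequence. For acidic windows, the base at the summit, exon length and distance to junctions, the background was the whole coding sequence, clusters included. Effects were tested over the 4 libraries with two-sided exact sign-flip permutation tests. Simulated sites, drawn separately for each library, were used to check the measures of codon position and acidic residues but not the p-values. The p-values measure only the spread between these libraries. All 4 libraries drew their sites from the same pooled list of clusters, so agreement in 4 of 4 libraries is in part built in.

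Named genes were the 10 with the most clusters, the 10 largest clusters, NCL, NEFM and HNRNPU, and for each gene list the 3 genes with the most cDNAs, of which the text gives a part. Named codons were those of glutamate, aspartate and lysine with the 5 highest and 5 lowest. Sequences were shown for some named clusters and the largest others, none from chromosome 8, and others are not reported here. SERBP1 and AGA, and the choice among windows, were picked after their values were seen. The members and gene lists were chosen with earlier results of these data known. Python 3.11.15, numpy 2.4.6, scipy 1.17.1 and matplotlib 3.10.9 were used.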

Additional observations from a re-analysis of the deposited data

Results flagged for a closer look

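Among 65 sets of 4 library values, 2 (3.08%) had a library far from the other 3 by Dixon's test, and chance alone flags about 1 in 20. The share of GAAGA copies in the arginine frame GA-AGA differed from that outside clusters by 1.23 percentage points in replicate 3, against -1.63, -1.36 and -1.66 in replicates 1, 2 and 4. The share of GAU among aspartate codons was above its background by 8.30 percentage points in replicate 4, against 4.15, 4.55 and 4.16 in replicates 1, 2 and 3.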

How the results depend on the processing

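No paired analysis was possible because all libraries belong to 1 condition. Of 716 recomputed values, 683 kept their direction or stayed within 1.5 times their count, and the exact test cannot pass 0.05 under any setting. With clusters of at least 20 cDNAs, 416 clusters in 242 genes were left, 220 of them above and 28 below the SDS-PAGE libraries in the beads library, the mean place was 0.0098 later than the middle, the first 10% held 0.87 percentage points fewer sites (-0.87), and coding clusters had fewer cDNAs than those of 3′ UTRs (log2 ratio -0.34). With the summit codon alone, the log2 ratio was -0.15 for glutamate, -0.62 for arginine, -0.23 for basic residues, -0.94 for GAG, -0.53 for AAG and 0.38 for CUU, AAA took 17.5 points more of the lysine codons, and 16 codons were above the background in all libraries. With every coding base of the cluster, added after seeing the data, 41 codons were below it and AAA differed by 0.0403 points. With each library's own clusters, AAA differed by 0.0062 points, the mean place by 0.017 and the first 10% by -1.90 points. With at least 5 cDNAs of the library, these places differed by 0.00083 and -0.77. The first 10% also turned with the longest coding sequence (-0.31) and with each cDNA counted without the ACVR2B cluster (-0.26). Against events outside clusters, U at the summit differed by -1.75 points and the mean place by 0.0037. The cause was not tested in these cases. Leaving out 1 library gave 295 to 539 clusters below the SDS-PAGE libraries in the beads library, a width difference from 5′ UTRs of -1.62 to 4.12 nt (negative without replicate 1), and log2 ratios of cDNAs per cluster of -0.034 to 0.029 against 3′ UTRs and -0.081 to 0.0297 against 5′ UTRs. Most clusters hold few cDNAs, so that a summit can move by chance of counting.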
